A study of Mus musculus with 4 samples.

Results

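Messenger RNAs of heat shock proteins and chaperones were examined in septal brain tissue of restraint-stressed mice. Genes were selected by symbol, namely those starting with Hspa, Hspb, Hspd, Hspe, Hsph, Hsp90, Dnaja, Dnajb or Dnajc, together with Tcp1 and the numbered Cct genes. The rule selected 75 of the 15409 gene rows listed. It sorts by name and not by function, so it also took Hspbp1, a nucleotide exchange partner of Hsp70, Hspbap1, a binding partner of a small heat shock protein, and Hspb11, a component of the intraflagellar transport machinery of cilia. Of the 75 genes, 72 had a mean level of at least 1 CPM (the read count of a gene scaled to a common library total) and were tested, whereas Hspa1l, Hspb2 and Hspb3 were below it.

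The study compared wild-type (WT) mice with TCRb-/- mice, in which the T cell receptor has no beta chain. Both genotypes went through the same restraint, 30 min on each of 3 days, with tissue taken 1.5 h after the final one, and no unrestrained group was analysed here. There were 4 libraries, 2 per genotype, each from tissue pooled from 4 to 5 mice, and 1 library of each genotype belonged to each of 2 experiments. The replicate number used below is the number of the experiment. The sources used here do not give strain, age or sex. RNA came from a cleared lysate from which nuclei had been spun down, so the values describe cytoplasmic RNA. A replicate is a pool, and the 2 pools of a genotype come from different experiments. Without the experiment as a block, the spread behind a genotype p-value therefore holds differences between experiments as well as between pools. In the comparison of experiments, the 2 pools of an experiment differ in genotype.

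Chaperones bind proteins that are not yet folded or have come unfolded. Hsp70 proteins bind and release short stretches of their clients in a cycle driven by ATP, J-domain proteins (the Dnaj families) bring clients and start the ATP hydrolysis, nucleotide exchange factors such as Hsp110 end the cycle, and Hsp90 acts later on partly folded kinases and receptors. The chaperonin TRiC is a closed ring of different subunits that folds actin and tubulin, fed by prefoldin, and separate sets of chaperones serve the endoplasmic reticulum (ER) and mitochondria. Cytosolic stress induces the heat shock genes through the transcription factor HSF1 and heat shock elements, and ER stress induces the ER set through ER stress elements bound by ATF6 and NF-Y.

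Promoter sequence was looked up for those 2 kinds of element, because the results below are ordered by these 2 regulatory groups. RefSeq windows of GRCm38.p6 were available for 62 of the 75 genes, and the 250 bases before the annotated start were searched on both strands. The ER stress element was searched as CCAAT and CCACG with 9 free bases between them, and the heat shock element as 3 units that alternate between GAA and TTC with 2 free bases between neighbours. The ER stress element was in 3 of the 62 windows (4.84%) against 0.130% of the 27025 genes with a window, and its holders were Hspa5, Hsp90b1 and Dnajc3, all of the ER set. A complete heat shock element was in 3 of 62 (4.84%) against 0.514% of all genes, and its holders were Hspe1, Hspd1 and Dnajb6. The Hspe1 and Hspd1 matches are the same bases of their shared divergent region, read on opposite strands, and so are 1 element. The 13 genes not searched were Hspa8, Hspa9, Hspa13, Hsp90aa1, Hsp90ab1, Hspb2, Cct4, Dnajc2, Dnajc5, Dnajc11, Dnajc12, Dnajc18 and Dnajc30. Of the heat shock list used below, Hspa1a, Hspa1b, Hspa4l, Hsph1, Hspb1, Dnaja1, Dnajb1 and Dnajb4 were searched and held no match. The pattern allows no mismatch within its units and covers only these windows, so no match does not mean that a gene lacks heat shock elements. A match describes letters only and is not evidence of a bound site. The stretches that hold the elements are printed 5′ to 3′ with the element in capitals, 5 of them as 30 bases and Dnajc3 as 150. The second Hsp90b1 element reads on the opposite strand, and the Hspe1 stretch, at chr1:55088053-55088082, also lies in an annotated exon of the divergent neighbour Hspd1. The stretches of Hspa5 and Dnajb6 lie in annotated exons of those genes.
Dnajc3 (chr14:118937782-118937931, + strand, element ending 86 bases before the start): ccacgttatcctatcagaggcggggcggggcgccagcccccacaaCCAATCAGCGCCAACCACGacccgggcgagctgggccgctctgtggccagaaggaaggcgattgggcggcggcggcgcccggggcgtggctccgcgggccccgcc
Hspa5 (chr2:34772020-34772049, + strand, 46 bases before): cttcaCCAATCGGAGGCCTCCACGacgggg
Hsp90b1 (chr10:86705632-86705661, - strand, 193 bases before): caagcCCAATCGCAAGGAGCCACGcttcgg
Hsp90b1 (chr10:86705527-86705556, - strand, 88 bases before): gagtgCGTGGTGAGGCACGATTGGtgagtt
Hspe1 (chr1:55088053-55088082, + strand, 71 bases before): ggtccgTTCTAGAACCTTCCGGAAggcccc
Dnajb6 (chr5:29735844-29735873, + strand, 33 bases before): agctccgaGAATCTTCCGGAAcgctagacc

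The libraries held between 19988137 and 26210790 reads, and 1 read was worth between 0.0382 and 0.05003 CPM. Trbc2, a constant segment of the deleted chain, had 0 reads in both TCRb-/- libraries and 169 and 86 in WT. All 9 septal markers (Zic1, Zic2, Zic4 and others) were listed, at 202 to 267 CPM in sum, and none was at 0 in all libraries. Markers of neighbouring tissue were also present and differed between libraries. The 9 striatal markers summed to 4296 CPM in TCRb-/- replicate 1 and 935 CPM in replicate 2, and to 3851 and 2335 CPM in the WT replicates. The 12 choroid plexus markers summed to 2154 and 6913 CPM in TCRb-/- and 1319 and 4204 CPM in WT. In tissue of this kind, fewer cells of a type and less RNA per cell cannot be told apart.

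Chaperone mRNA made up about 1% of the reads. The 75 genes together took 0.926% and 1.06% of the reads in TCRb-/- replicates 1 and 2 and 1.02% and 1.05% in WT. Of the 75, 29 had a mean above 100 CPM and 11 were under 10 CPM. The 10 most abundant genes, led by Hsp90ab1, Hspa8, Cct7 and Dnajc5, held between 46.1% and 48.4% of all chaperone reads. Per kilobase of exon, Hsp90ab1 was the highest at 401 CPM, followed by Hspbp1 at 141, Cct8 at 138 and Hspa8 at 137, and Hspa1l was the lowest at 0.238. Exon length here and below joins all annotated exons of a gene, so it can exceed the length of a single transcript. Values and ratios per kilobase depend on that choice.

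Hspa8, the constitutive Hsp70, was far above the inducible Hsp70 genes Hspa1a and Hspa1b in every library. Hspa8 lies on chromosome 9 from 40800984 to 40810087 (GRCm38), and had 479 CPM in TCRb-/- replicate 1 and 677 CPM in replicate 2, with 570 and 628 CPM in the WT replicates. Hspa1a and Hspa1b, the near-identical inducible Hsp70 genes on chromosome 17 (34969190 to 34972156 and 34956436 to 34959238), were among the 11 chaperones under 10 CPM. Hspa1a had 57 and 73 reads in TCRb-/- and 64 and 83 in WT, or 2.32, 3.65, 2.44 and 3.71 CPM. Hspa1b had 63 and 103 reads in TCRb-/- and 116 and 120 in WT, or 2.56, 5.15, 4.43 and 5.37 CPM. Per kilobase, Hspa8 exceeded Hspa1b by a ratio of 87.6, with single libraries between 76.3 and 122. The joined exon lengths used were 4.30 kb for Hspa8 and 2.80 kb for Hspa1b. Of the 50-base stretches of Hspa1a, 66.3% also occur in another gene, chiefly Hspa1b, so the split of reads between them is uncertain. How reads that fit several genes were counted is not given in the labels, and dropping them would lower both genes more than Hspa8, of which 39.4% of stretches are shared. The effect on the ratio was not tested. Hspa1l, a germline-enriched relative on the same chromosome that shares 71.4% of its stretches with other genes, had between 4 and 21 reads.

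Within Hsp90, the constitutive form exceeded the inducible form in every library. Hsp90ab1 had 1003 and 1219 CPM in TCRb-/- and 1314 and 1276 CPM in WT, and Hsp90aa1 had 164 and 231 CPM in TCRb-/- and 215 and 232 CPM in WT. Their ratio per kilobase was 7.49 overall and ran from 6.92 to 8.02. Of Hsp90aa1, 47.5% of stretches are shared with other genes, against 3.44% of Hsp90ab1, so dropping shared reads would lower Hsp90aa1 more. Hsph1, the Hsp110 exchange factor, had 276 and 284 CPM in TCRb-/- and 326 and 311 CPM in WT. Dnajb1, the J-domain partner of inducible Hsp70, had between 169 and 195 CPM.

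**Figure D1:**
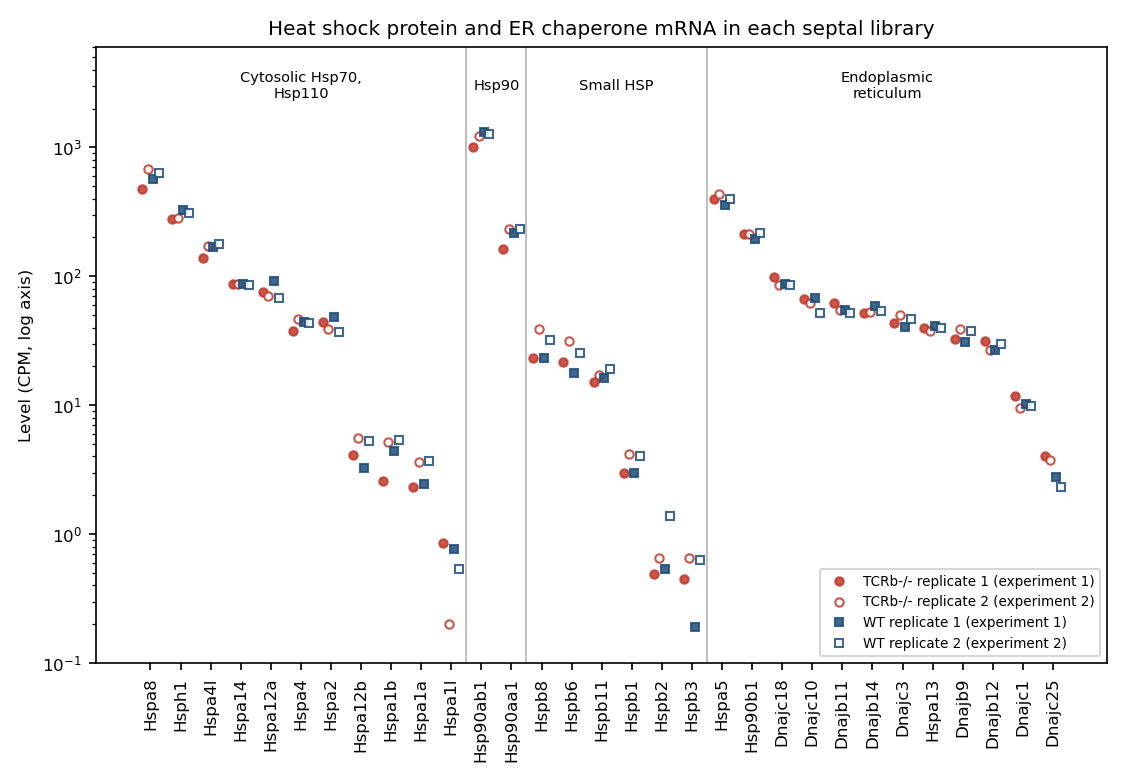
Level in CPM (log axis) of selected cytosolic and ER chaperone genes, with 1 marker per library as given in the legend. Hsp90ab1 and Hspa8 sit above 400 CPM in all 4 libraries, and Hspa1a and Hspa1b sit between 2.32 and 5.37 CPM.

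The first comparison asked which chaperone mRNAs differed between TCRb-/- and WT tissue after restraint. No chaperone passed the threshold. In limma, 0 of 72 had an adjusted p under 0.05, and over all genes tested the share was 0% (0 of 13912). With voom weights 0 chaperones passed as well. At an unadjusted p under 0.05 there were 0 chaperones and 43 genes in all (0.309%). With the experiment as a block, 5 of 72 chaperones (6.94%) had an unadjusted p under 0.05 against 5.64% of all genes, and 0 passed the adjusted threshold, which 0.0144% of all genes (2) did. The median log2 difference of the 72, on the log2(CPM + 1) scale used throughout, was -0.03 (30 higher and 42 lower in TCRb-/-), against 0.00 over all genes, and it turned to 0.04 without TCRb-/- replicate 1.

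Genes known to be induced by heat shock were mostly at lower values in TCRb-/-, and ER chaperones at higher values, without any passing the test. The heat shock list had 13 genes. It includes Hspa8 and Hsp90ab1, which are also abundant without stress, and the mitochondrial Hspd1 and Hspe1. Like the ER sets, it was chosen with earlier results of these data known. Counts of direction over these lists are therefore descriptions and not tests. Of the 13, 12 had a lower and 1 a higher mean in TCRb-/- (7.69% higher, against 50.3% of all genes), with a median of -0.12. Of those above 100 CPM, Hsp90ab1 had the largest difference. Its TCRb-/- mean was 1111 ± 153 CPM and its WT mean 1295 ± 26.9 CPM (SD, n = 2 each), a log2 difference of -0.23 (SE 0.15). Both TCRb-/- libraries lay below both WT libraries. The unadjusted limma p was 0.193 without the block and 0.0373 with it (adjusted p 0.848 with the block). SEs here and below are from the fit without the block. Hsph1 had 280 ± 5.15 CPM against 319 ± 10.5 (SD, n = 2 each), a difference of -0.19 (SE 0.12), also without overlap. Its unadjusted limma p was 0.168 without the block and 0.0257 with it. For Hsp90aa1 (-0.20), Hspa1b (-0.33), Hspa8 (-0.07) and Dnajb1 (-0.09) the genotypes overlapped.

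Those differences were larger in experiment 1. The genes of the heat shock list had a median genotype difference of -0.24 in experiment 1 and -0.02 in experiment 2, each with 1 library a side and therefore no test. Hsp90ab1 differed by -0.39 and -0.07, Hsp90aa1 by -0.39 and -0.01 and Hspa8 by -0.25 and 0.11. TCRb-/- replicate 1 was the lowest of the 4 libraries for 13 of 13 genes of the heat shock list, for 8 of 8 TRiC subunits and for 37 of all 72 chaperones (51.4%), whereas it was the lowest for 23.7% of all genes tested. Without TCRb-/- replicate 1, the median of the cytosolic Hsp70 and Hsp110 group moved from -0.07 to 0.04 and that of TRiC from -0.09 to 0.07. That library also held the most striatal marker RNA. What part striatal tissue has in these values was not tested.

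The ER set gave the other direction, mainly in experiment 1. Of its 12 genes, 10 had a higher mean in TCRb-/-, with a median of 0.08. The median was 0.15 in experiment 1 (9 of 12 higher) and 0.01 in experiment 2 (6 of 12 higher). In the narrower set of 7 that the unfolded protein response induces, 6 were higher, with a median of 0.10 (0.10 in experiment 1 and 0.08 in experiment 2). Hspa5 (BiP), the main Hsp70 of the ER, had 394 and 438 CPM in TCRb-/- and 356 and 397 CPM in WT. It was higher in TCRb-/- within each experiment (0.15 and 0.14), but the genotypes overlapped. The unadjusted limma p of Hspa5 was 0.324 without the block and 0.0577 with it. Dnajb11, a BiP partner, had 61.6 and 54.4 CPM in TCRb-/- and 54.3 and 51.5 CPM in WT, without overlap. Dnajc3, which restrains the eIF2alpha kinase PERK, had 43.2 and 49.98 against 40.3 and 46.2 CPM, and Hsp90b1 (GRP94) had 214 and 214 against 193 and 215 CPM. WT replicate 1 was the lowest library for 4 of the 12 genes of the ER set (33.3%), against 23.4% of all genes. TCRb-/- replicate 2 was the lowest for 4 of the 12 as well, against 31.7% of all genes. In the narrower set, WT replicate 1 was the lowest for 4 of the 7 genes. It was also the lowest for 12 of 18 other ER folding and stress genes. Choroid plexus markers were also higher in TCRb-/-, 12 of 12, with a median of 0.56. The 7 oligodendrocyte markers, at 10600 and 8917 CPM in sum in TCRb-/- and 9327 and 9467 CPM in WT, had medians of 0.17 in experiment 1 and -0.05 in experiment 2. No marker of either list was at 0 in all libraries, and their part in the ER values was not tested. The 3 genes whose promoters held the ER stress element, Hspa5, Hsp90b1 and Dnajc3, thus had differences of 0.14, 0.07 and 0.10, none past the threshold.

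The chaperones with the largest genotype differences were low in abundance. Dnajc25, a J-domain protein placed here with the ER set, had 4.07 and 3.75 CPM in TCRb-/- and 2.79 and 2.33 CPM in WT, a difference of 0.47 (SE 0.20). Dnajb13, a J-domain protein of motile cilia, had 7.48 and 7.20 against 5.11 and 5.77 CPM, a difference of 0.38 (SE 0.18). Neither overlapped between genotypes. Their unadjusted limma p values were 0.0614 and 0.0880 without the block, and 0.0292 and 0.0392 with it. The 10 markers of ependyma, the ciliated lining of the ventricles, moved in the same direction as Dnajb13, at 200 and 248 CPM in sum in TCRb-/- and 152 and 222 CPM in WT, with none at 0 in all libraries. The part of ependymal RNA in the Dnajb13 difference was not tested. Hspb6, a small heat shock protein, had the smallest unadjusted limma p with the block (0.0246), at 21.6 and 31.5 against 17.9 and 25.4 CPM. Without the block its unadjusted limma p was 0.331. Its difference was 0.28 (0.26 in experiment 1 and 0.30 in experiment 2), and its genotypes overlapped. On the lower side, Hspa1b had the largest difference (-0.33), with overlap between genotypes. Dnajb3, a testis-enriched J-domain protein, had 3.70 and 3.50 against 4.31 and 5.19 CPM (difference -0.32). Hspbap1 had 8.18 and 9.46 against 11.6 and 9.75 CPM (-0.25). Neither Dnajb3 nor Hspbap1 overlapped between genotypes.

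A few J-domain genes of higher abundance did not overlap either. Dnajb5, a partner of Hsc70, had 118 and 94.5 CPM in TCRb-/- and 83.4 and 93.8 CPM in WT, but the difference was 0.50 in experiment 1 and 0.01 in experiment 2. Dnajb4, an inducible J-domain protein, had 131 and 138 against 155 and 146 CPM (-0.16). Dnajb2, which is neuron-enriched and clears misfolded protein, had 188 and 189 against 184 and 186 CPM, a difference of 0.02. In all, 5 of 72 chaperones (6.94%) lay higher without overlap in TCRb-/- and 10 (13.9%) lower, against 9.76% and 8.04% of all genes. In both experiments, 15 were higher (20.8% against 27.0% of all genes) and 25 lower (34.7% against 24.5%).

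**Figure D2:**
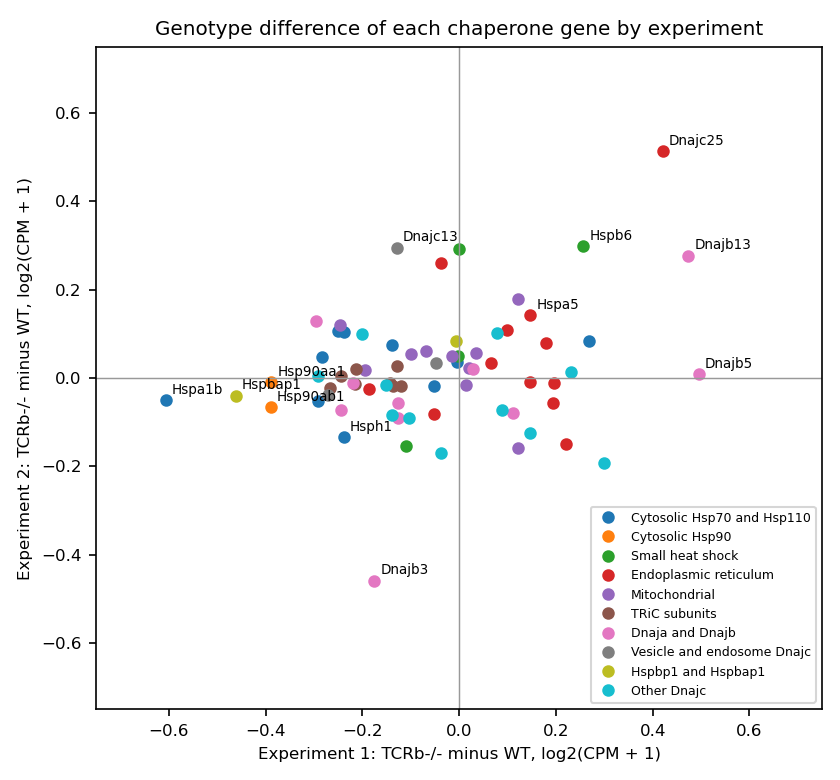
Genotype difference (TCRb-/- minus WT, log2(CPM + 1)) of each of the 72 tested genes in experiment 1 (x axis) and experiment 2 (y axis), coloured by family, with 1 library a side. Hsp90ab1 lies at -0.39 and -0.07, and the TRiC genes lie left of 0 on the x axis and close to 0 on the y axis.

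The second comparison set experiment 2 against experiment 1, which is the background for the genotype difference. It gave more calls. In limma 3292 of 13912 genes (23.7%) passed the adjusted threshold of 0.05, 1245 higher in experiment 2 (8.95%) and 2047 lower (14.7%). Of the 72 chaperones, 13 (18.1%) passed, 12 higher (16.7%) and 1 lower (1.39%). The share of all calls that were higher was 37.8%, and 50.6% under quantile normalization, which called 14 chaperones higher and 2 lower. The higher genes were Hspb8, Hspb6, Hspa8, Hspbp1, Dnaja1, Hspe1, Dnajc12, Dnajc15, Dnajc21, Cct4, Cct7 and Cct8, and the lower one was Dnajc5. The median of the chaperones was 0.10 and that of all genes -0.03.

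Hspb8 and Hspb6, small heat shock proteins that hold unfolded clients without using ATP, had the largest differences among the 13 called chaperones. Hspb8, the partner of BAG3 in selective autophagy, had 23.0 and 23.0 CPM in experiment 1 (TCRb-/- and WT) and 39.1 and 31.8 CPM in experiment 2, a rise of 0.59 (SE 0.12, adjusted limma p 0.0128). Hspb6 rose from 21.6 and 17.9 CPM to 31.5 and 25.4 CPM, by 0.50 (SE 0.14, adjusted p 0.0350). Hspb1 (HSP27), of which 50.1% of stretches are shared with a pseudogene, had 2.97 and 2.98 against 4.20 and 4.03 CPM (0.36, adjusted p 0.131). Hspb8, Hspb6 and Hspb1 did not overlap between experiments. Hspb2 and Hspb3 were at 5 to 31 reads in a library. Choroid plexus marker RNA was also higher in experiment 2 in both genotypes, with 11 of 12 markers called, and its part in the small heat shock values was not tested.

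All 8 TRiC subunit genes had higher means in experiment 2, with a median of 0.21. Of the 8, 3 (37.5%) were called higher, against 8.95% of all genes. Cct7 had 487 and 529 CPM in experiment 1 (TCRb-/- and WT) and 627 and 635 CPM in experiment 2, a rise of 0.31 (SE 0.07, adjusted limma p 0.0177). Cct8 rose from 348 and 413 to 474 and 472 CPM (0.32, adjusted p 0.0345), and Cct4 from 138 and 160 to 184 and 186 CPM (0.31, adjusted p 0.0300). Tcp1, the founding subunit, had 181 and 218 against 212 and 215 CPM (0.10, adjusted p 0.429), and its experiments overlapped. For 8 of 8 subunits the lowest library was TCRb-/- replicate 1, and the median difference between experiments was 0.30 in TCRb-/- and 0.12 in WT. Although the subunits share a ring in equal numbers, their mean mRNA levels ran from 119 CPM for Cct2 to 569 CPM for Cct7. Per kilobase of annotated exon, they ran from 39.7 CPM for Cct4 to 138 for Cct8, an order that depends on the exon lengths used. The Cct8 to Cct4 ratio per kilobase stayed between 3.44 and 3.51 over the libraries.

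**Figure D3:**
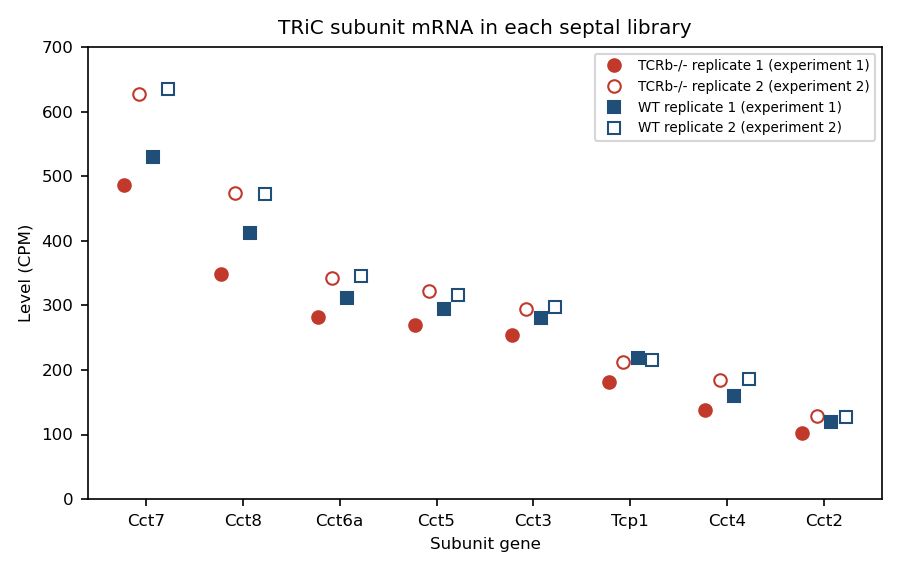
Level in CPM (linear axis from 0) of the 8 TRiC subunit genes, with 1 marker per library as given in the legend. TCRb-/- replicate 1 is the lowest marker for each subunit, at 487 CPM against 529 to 635 CPM for Cct7.

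Prefoldin, which hands clients to TRiC, moved in the same direction. Of its 6 subunit genes, all on the co-chaperone list below, 5 were called higher in experiment 2. Vbp1 had 202 and 225 CPM in experiment 1 and 303 and 286 CPM in experiment 2 (0.46, adjusted limma p 0.0078), and Pfdn1 had 152 and 142 against 197 and 196 CPM (0.42, adjusted p 0.00749). Pfdn2, Pfdn4 and Pfdn5 were also called, and Pfdn6, at 80.1 and 80.0 against 80.8 and 86.1 CPM, was not (0.06). The prefoldin genes have short exon sequences, between 1.11 and 2.52 kb, and of all genes under 2 kb, 23.2% were called higher in experiment 2 and 2.67% lower. Across 13552 genes the difference had a Spearman rho of -0.398 with exon length, and across the 72 chaperones -0.394, given as descriptions, since genes of 1 library share its depth and composition.

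The 12 chaperones called higher had a median exon length of 4.25 kb, against 4.13 kb for the chaperones and 4.46 kb for all genes tested. Among genes of 3 to 5 kb, 5 of 22 chaperones (22.7%) were called higher against 7.94% of all genes. Among those of 5 kb or more, 3 of 27 (11.1%) were called higher against 3.53%, and 1 of 27 lower against 23.5%. Between 2 and 3 kb, 1 of 14 (7.14%) was called higher against 14.0%, and under 2 kb 3 of 9 (33.3%) against 23.2%. Beyond these shares, what part length has in the chaperone values was not tested.

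In the cytosolic Hsp70 cycle, 1 of 10 Hsp70 and Hsp110 genes (10.0%) passed, against 23.7% of all genes. Hspa8, at 479 and 570 CPM in experiment 1 and 677 and 628 CPM in experiment 2, rose by 0.32 (SE 0.09, adjusted limma p 0.0429). Its J-domain partner Dnaja1 rose from 231 and 269 to 300 and 303 CPM (0.27, adjusted p 0.0473), and Hspbp1, which releases nucleotide from Hsp70, from 239 and 240 to 304 and 287 CPM (0.30, adjusted p 0.0153). Hspa8 was not called under quantile normalization. The inducible genes had higher values in experiment 2 but did not pass, Hspa1a at 0.47 (adjusted p 0.0726), Hspa1b at 0.51 (0.124) and Hsp90aa1 at 0.30 (0.0932). Hsp90ab1 had 0.12 (0.499) and Hsph1 -0.01 (0.920). Hspa2 (-0.26, adjusted p 0.0655) and Hspa12a (-0.27, adjusted p 0.0829) were lower in experiment 2 without overlap and did not pass.

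Among mitochondrial chaperones, 2 of 10 passed, both higher. Of all genes, 23.7% passed in either direction and 8.95% were called higher. Hspe1, the lid of the Hsp60 chamber, rose from 54.2 and 58.1 CPM to 72.7 and 70.0 CPM (0.34, SE 0.08, adjusted limma p 0.0181). Hspd1, the Hsp60 barrel transcribed from the same divergent promoter region, had 98.0 and 112 against 122 and 120 CPM (0.20, adjusted p 0.1004). Per kilobase, Hspe1 and Hspd1 stood at a ratio of 1.01, between 0.928 and 1.07 over the libraries, with 18.4% of Hspe1 and 39.7% of Hspd1 stretches shared with other genes. Dnajc15, a J-domain protein of the inner membrane import motor, rose from 66.2 and 69.5 to 85.4 and 81.8 CPM (0.30, adjusted p 0.0229). Hspa9 (mortalin), the Hsp70 of the matrix, had 149 and 177 against 194 and 178 CPM (0.19, adjusted p 0.161), and Dnaja3, its J-domain partner, had 184 and 186 against 198 and 191 CPM.

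The ER set had 0 of 12 genes past the threshold between experiments, against 23.7% of all genes. Its median was -0.07, with 4 genes higher and 8 lower, and it turned to 0.02 without TCRb-/- replicate 1. Dnajb9, an early target of the unfolded protein response, had 32.5 and 31.1 against 38.9 and 37.9 CPM (0.26, adjusted limma p 0.0566). Hspa5 had 0.15 (0.191), Dnajc3 0.20 (0.121) and Hsp90b1 0.08 (0.444). Dnajb9 passed with a filter at 10 CPM and under both other scalings.

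Of 3 vesicle and endosome J-domain genes 1 was called, and of 11 other Dnajc genes 2 (18.2%), against 23.7% of all genes. Dnajc5 (cysteine string protein), which keeps SNARE proteins of synaptic vesicles folded, fell from 477 and 493 CPM to 419 and 409 CPM, by 0.23 on the log2 scale (SE 0.06, adjusted limma p 0.0356). It was not called under median-of-ratios scaling. Dnajc6 (auxilin), which strips clathrin from vesicles with Hspa8, had 70.8 and 85.7 against 78.0 and 80.2 CPM (0.02, adjusted p 0.882). Dnajc12, a cofactor for aromatic amino acid hydroxylases, rose from 32.7 and 40.3 to 51.2 and 51.0 CPM (0.48, SE 0.11, adjusted p 0.0183), and Dnajc21, a ribosome assembly factor, from 24.3 and 28.1 to 36.2 and 33.7 CPM (0.40, SE 0.10, adjusted p 0.0293). Dnaja4 (-0.24, adjusted p 0.0569) and Dnajc27 (-0.22, adjusted p 0.0627) were lower in experiment 2 without overlap and did not pass. Striatal markers, 9 of 9 called lower in experiment 2, moved with the lower genes. Other marker lists differed between experiments as well. Of 7 cortex and hippocampus markers 5 were called lower and 0 higher, and of 7 thalamic markers 5 higher and 0 lower. Of 9 ependymal markers tested 5 were called higher and 0 lower, and of 6 neuronal markers 2 higher and 3 lower. The part of these tissues in the chaperone values was not tested.

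**Figure D4:**
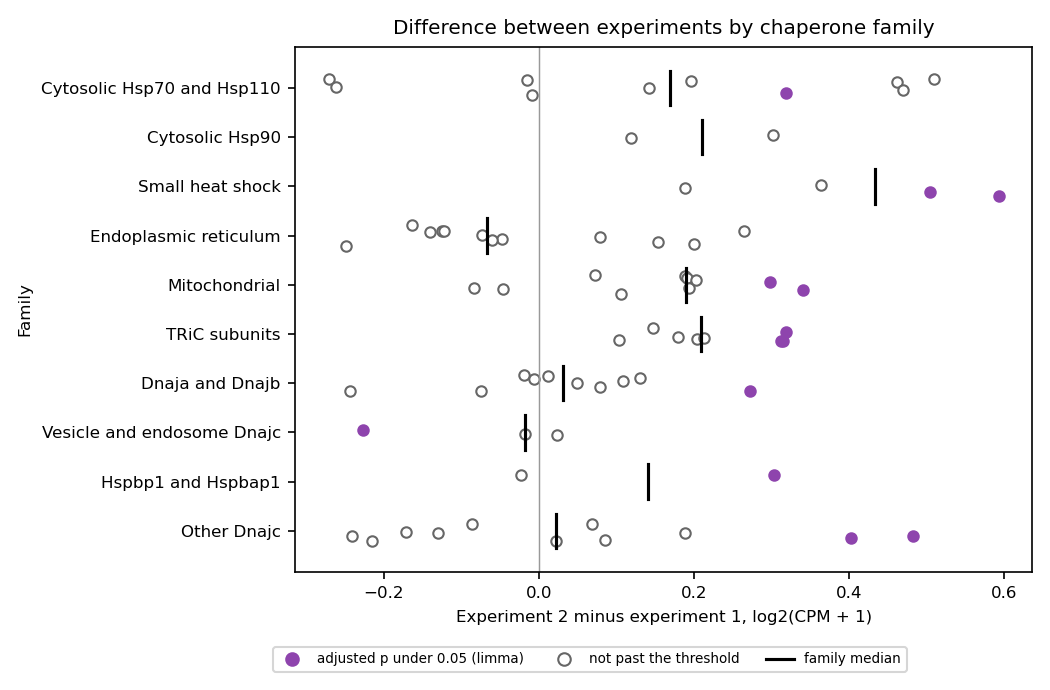
Difference between experiments (experiment 2 minus experiment 1, log2(CPM + 1)) of each of the 72 tested genes, by family, with filled points for genes past the adjusted threshold and a bar at the family median. Hspb8 is the highest called gene at 0.59, the TRiC median is 0.21 and Dnajc5 is the only called gene left of 0.

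The calls between experiments depended on single libraries and on the variance model. Without TCRb-/- replicate 1, 3 chaperones passed, and 1 of them (Hspbp1) was among the 13. Without TCRb-/- replicate 2, 4 passed, 3 of them among the 13 (Cct7, Dnajc12 and Hspb8). With moderation that ignores the relation of variance to level, 1 passed, Hspa1a. The experiments did not overlap for 36 chaperones that were higher in experiment 2, of 72, against 30.1% of all genes, and for 12 that were lower (16.7%) against 37.2%. Over all 4 libraries, 38 chaperones were higher in experiment 2 in both genotypes (52.8% against 35.1% of all genes), and 15 were lower in both (20.8% against 42.2%).

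The partners and regulators of the chaperones were read from 2 lists. Of 44 co-chaperones and heat shock factors, 0 were called by genotype (median -0.01, 19 higher and 25 lower), and between experiments 11 (25% of 44) were called higher and 3 (6.82%) lower, against 8.95% and 14.7% of all genes (median 0.09). Hsf1, the heat shock regulator, was picked from the 44 after its values were seen. It had 74.96 and 75.5 CPM in TCRb-/- and 61.6 and 66.6 CPM in WT. The difference of 0.23 was without overlap and was not called (unadjusted limma p 0.0182 with the block). Of the 44 genes, 3 (6.82%) had an unadjusted limma p under 0.05 with the block, against 5.64% of all genes. Without overlap, 2 (4.55%) lay higher in TCRb-/- and 3 (6.82%) lower, against 9.76% and 8.04% of all genes. Ptges3 (p23), which closes the Hsp90 clamp, was called higher in experiment 2 at 78.4 and 83.8 against 112 and 104 CPM (0.41), as was Cacybp (0.36), an adaptor of ubiquitin ligases. Fkbp5, the Hsp90 cofactor that glucocorticoids induce, was called lower at 89.0 and 66.3 against 59.1 and 55.2 CPM (-0.42, adjusted p 0.04998), with Clpb (-0.28), the mitochondrial disaggregase, and Bag5 (-0.26), an exchange factor.

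Of 18 other ER folding and stress genes, 0 were called by genotype (median 0.08, 15 higher and 3 lower), with a median of 0.15 in experiment 1 (15 higher) and -0.0017 in experiment 2 (8 higher). Between experiments 2 (11.1%) were called higher and 3 (16.7%) lower, near the 8.95% and 14.7% of all genes. Herpud1, part of ER-associated degradation, was higher at 124 and 114 against 157 and 142 CPM (0.33), and so was Pdia3 (0.25), a disulfide isomerase. Atf6, the sensor that acts through the ER stress element, was lower at 25.1 and 24.0 against 9.71 and 14.2 CPM (-1.002, adjusted limma p 0.0086). Trib3 (-0.83), a stress-induced pseudokinase, and Sel1l (-0.43), a scaffold of ER-associated degradation, were lower as well. The 3 chaperones with an ER stress element in their promoters did not pass in this comparison.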

How the data were processed

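The members, families and lists were chosen with earlier results of these data known. Per the submitters' processing notes, mm10, HISAT2 2.1.0, SAMtools 1.3, HTSeq 0.9.1, R 4.0.5 and limma 3.46.0 were used, and the sources used here give neither their roles nor strand or annotation. The values the authors deposited are on a log2 scale, the log2 of CPM with 0.5 added to the reads and 1 to the total. Solving for the total gave whole reads for 100% of values (tolerance 0.001 reads), with a depth of 24585868 reads for TCRb-/- replicate 1, 19988137 for its replicate 2, 26210790 for WT replicate 1 and 22358674 for its replicate 2. The 15426 rows took between 97.6% and 97.8% of the reads, 17 rows were spike-ins and were left out, and 12 gene rows share a symbol with another. A count of 0 allows 3 reads, 0.114 to 0.150 CPM. Amplified reads without molecular identifiers cover counting error only.

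Genes averaging 1 CPM or more were compared as log2(CPM + 1), which understates low genes, with limma 3.58.1 in R 4.3.3 (trend, two-sided, Benjamini-Hochberg over all 13912 genes, threshold 0.05). Python 3.11.15, matplotlib 3.10.9, scipy 1.17.1, numpy 2.4.6 and pandas 2.3.3 were also used, and the fit was tested on simulated data. The simulation held no difference between experiments, and its planted changes were larger than any chaperone genotype difference given here. It therefore cannot show whether differences of that size would be found. Named were 20 chaperones whatever their values, the 5 highest and 5 lowest past the threshold per comparison (places filled by the smallest unadjusted p without overlap), the most and least abundant of each family, and up to 5 called genes a direction of the pathway lists. Other genes given with values, such as Hsf1, were chosen after their values were seen. Sharing of sequence was measured as 50-base stretches found in transcripts of another gene on either strand. Replicate numbers are experiments in the labels, so they pair the libraries, and deviations from the genotype mean correlated at 0.719 across genes. Reads of replicates differed beyond counting error (chi-square over degrees of freedom 52.1 for TCRb-/- and 30.3 for WT). Alternatives were quantile and median-of-ratios scaling, other filters (none, or 10 CPM) and pseudocounts (0.1 or 5), the block, voom weights, moderation without a trend, and omission of each library.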

Additional observations from a re-analysis of the deposited data

Results flagged for a closer look

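Some of the chaperones named by rule differed in opposite directions in the 2 parts of a comparison, by at least 0.1 on the log2(CPM + 1) scale on both sides, each with 1 library a side, and the difference was not tested. By genotype, TCRb-/- minus WT was -0.25 in experiment 1 and 0.11 in experiment 2 for Hspa8, the constitutive Hsp70, and -0.25 and 0.12 for Hspa9, the mitochondrial Hsp70. It was -0.20 and 0.10 for the ribosome assembly factor Dnajc21 and 0.12 and -0.16 for the mitochondrial J-domain gene Dnajc28. Dnajc13, a J-domain protein of endosomes, had -0.13 in experiment 1 and 0.30 in experiment 2. Between experiments, experiment 2 minus experiment 1 was -0.32 in TCRb-/- and 0.17 in WT for Dnajb5. It was 0.19 and -0.23 for Hspbap1, and 0.19 and -0.23 for Dnajc13. Dnaja2, Dnajb12, Dnajc16, Dnajc24 and Hspa4, outside the naming rule and found after the values were seen, also meet the 0.1 limit. Their genotype differences in experiments 1 and 2 were -0.30 and 0.13 for Dnaja2, 0.22 and -0.15 for Dnajb12, 0.30 and -0.19 for Dnajc16, 0.15 and -0.12 for Dnajc24, and -0.24 and 0.10 for Hspa4. Between experiments, Dnaja2 had 0.19 in TCRb-/- and -0.23 in WT, and Dnajb12 had -0.23 and 0.14.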

How the results depend on the processing

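With all libraries, the count of genes by genotype was 0 in each unblocked fit. The replicate block gave 2, adding voom weights to it gave 2, and dropping the trend from it gave 0. The count ranged from 0 to 47 with 1 library left out (47 without TCRb-/- replicate 1, 1 without TCRb-/- replicate 2). The count of chaperones by genotype was 0 in every fit run, the replicate block included. Between experiments, 629 genes passed when the trend was dropped, 0 when the replicate block was added as well, and 1406 to 3390 with 1 library left out (1406 and 1823 without TCRb-/- replicates 1 and 2, 1637 without WT replicate 1). The corresponding counts of chaperones were 1, 0, and 3 to 18. The block with trend moderation left the same 13 chaperones. The causes were not tested.

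Scaling turned the sign of some values near 0. By genotype, quantile normalization gave -0.0051 for Hspb1 and 0.013 for Dnajc5, and turned the medians of the mitochondrial (0.0047) and of the vesicle and endosome Dnajc genes (0.013). Between experiments, median-of-ratios scaling gave 0.017 for Hsph1, 0.0065 for Hspbap1, 0.026 for Dnajb4 and 0.012 for Dnajc13, and quantile normalization gave 0.050 for Hspbap1, 0.0074 for Dnajb4, 0.0075 for Dnajc28 and 0.084 for Dnajc13. A filter at 10 CPM moved the Hsp70 and Hsp110 median between experiments to -0.0087.

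Leaving out 1 library leaves 1 library on a side, assumed to vary like the others, and unbalances the pairs. Genotype differences that changed sign ranged as follows: Hspa1a -0.28 to 0.21, Hspa1b -0.72 to 0.066, Hspa8 -0.32 to 0.18, Hsp90aa1 -0.44 to 0.048, Hspb1 -0.17 to 0.22, Hspd1 -0.24 to 0.067, Hspe1 -0.23 to 0.19, Hsp90b1 -0.0095 to 0.15, Hspa9 -0.25 to 0.13, Dnajb9 -0.090 to 0.19, Dnajc5 -0.14 to 0.13, Hspb8 -0.22 to 0.52, Dnajc12 -0.46 to 0.17, Dnajc21 -0.33 to 0.23, Dnaja4 -0.15 to 0.18, Dnajc27 -0.23 to 0.058, Hspa2 -0.22 to 0.15, Hspa12a -0.34 to 0.10, Dnaja3 -0.035 to 0.070, Dnajc28 -0.13 to 0.094, Cct7 -0.25 to 0.11, Cct2 -0.26 to 0.064, Dnaja1 -0.30 to 0.073, Dnajc13 -0.032 to 0.20 and Hspbp1 -0.14 to 0.21. For differences between experiments the ranges were Hsph1 -0.13 to 0.10, Hsp90ab1 -0.075 to 0.31, Dnajc6 -0.11 to 0.16, Tcp1 -0.029 to 0.24, Dnajb13 -0.19 to 0.29, Dnajc25 -0.40 to 0.12, Dnajb5 -0.32 to 0.17, Dnajb2 -0.0016 to 0.026, Dnajb3 -0.15 to 0.31, Hspbap1 -0.25 to 0.21, Dnajb4 -0.13 to 0.12 and Dnajc13 -0.17 to 0.13. Depth limits the lowest genes, Hspa1a, Hspa1b, Hspa1l, Hspb1, Hspb2, Hspb3, Dnajb3 and Dnajc25, to a few reads up to 120 reads a library. The 11 chaperones under 10 CPM have no value under the filter at 10 CPM.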
